A study of Mus musculus with 15 samples.

Results

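The windows described here are 3 kb stretches of the mouse genome that carried H3K4Me1 before induction. Their H3K27Ac lay below a set limit at that time and reached a higher limit at 48 h. Chromosomes 1 to 19 and X of mm9 (NCBIM37) were cut into windows of 3 kb, and the level of a mark in a window was its number of distinct tag positions divided by the library's mean over all windows that held a tag in any library. A level of 1 is therefore the library mean. A window was taken when H3K4Me1 was at least 4 at 0 h, H3K27Ac was below 1.5 at 0 h and H3K27Ac was at least 3 at 48 h. The rule found 1174 of 832530 windows with a tag, which is 0.141% (exact 95% binomial interval 0.133 to 0.149). They are called gaining primed windows below. The cells were C10 cells, a clonal mouse pre-B line derived from HAFTL cells that carries C/EBPα fused to the hormone-binding domain of the estrogen receptor and tagged with GFP. With β-estradiol, IL-3 and CSF-1 the cells turn into macrophage-like cells, while controls received the solvent ethanol. ChIP-seq was read for H3K4Me1, H3K27Ac and H3K27Me3 at 0, 3, 12, 24 and 48 h, with 1 library for each mark and time, so no difference between times could be tested and the intervals below cover counting error, or the number of windows taken as independent, only. The labels give the same clonal line for all libraries, and it is driven by an expressed transgene rather than by the cells' own factor.

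Enhancers are stretches of DNA that raise transcription of a gene from a distance. Nucleosomes at many of them carry monomethylated lysine 4 of histone H3 (H3K4Me1), and an enhancer with this mark and without acetylation is commonly called primed or poised. Acetylation of lysine 27 (H3K27Ac), placed by p300 and CBP, marks enhancers and promoters in use, and trimethylation of the same lysine (H3K27Me3), placed by the Polycomb complex PRC2, marks silent genes. The same lysine of a histone tail cannot carry both of the latter marks. C/EBPα is a transcription factor of the myeloid lineage. PU.1 acts in both myeloid and B cells, and the study found it expressed in these pre-B cells before induction. EBF1 and the E-box factor E2A are factors of early B cells. In a population of cells, a mark on fewer cells and a weaker mark on every cell cannot be told apart.

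The libraries held 10913733 to 31541879 distinct tag positions, or 13.1 to 37.9 tags per window on average. Cell identity was checked by H3K27Ac over the starts of marker genes. At 6 pre-B genes the level was 55.6 to 93.6 at 0 h and 15 to 32.8 at 48 h, and it was lower at 48 h in 6 of 6. At 6 macrophage genes it was 0.547 to 7.77 at 0 h and 5.08 to 69.6 at 48 h, and it was higher in 6 of 6. The 4 T cell genes were at 0.164 to 1.37 at 0 h and 0.254 to 0.964 at 48 h, and the 3 erythroid genes at 0.0547 to 5.64 and 0.102 to 4.92. The H3K27Ac libraries of 0 and 3 h stood apart from the other 13: over 2 stretches of chromosome 12, chr12:114670001-114690000 and chr12:114700001-114730000, they held 152 and 145 tags and 403 and 298 tags, where the other 13 libraries together held 5 and 2. Whether these 2 libraries came from a culture that differed in another way was not tested. The H3K27Ac library of 0 h enters the rule, so no result can be given without it. The other 2 libraries of the rule, H3K4Me1 at 0 h and H3K27Ac at 48 h, were among the 13. The primed state at 0 h was thus read from libraries on both sides of this split.

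The 5 sequences below are printed to show what such windows look like at the base level, each being the 300 bases of a window, outside exons, that held the most H3K27Ac tags at 48 h. Abca1 and Uck2 name windows among those with the most H3K27Ac at 48 h, Narg2 and Ube2f those with the most at 3 h, and Socs3 the window with the most H3K27Me3 at 0 h. A window is named by the protein-coding gene with the nearest start. Sequences are the + strand of mm9, 5′ to 3′, in lower case, and capitals mark matches, on either strand, to any of 8 motifs: C/EBP (TTGCNNAA), PU.1 (GAGGAAGT), AP-1 (TGANTCA), RUNX (TGTGGTTT), EBF (CCCNNGGGA), E-box (CAGGTG), IRF (GAAANNGAA) and NF-kB (GGAATTTCC). The capitals are 2 overlapping EBF matches, 1 on each strand, which read as a single stretch, in Abca1, and 2 E-box matches in Narg2, and no motif matched in the other 3. A match shows only that the letters are present.
Abca1, chr4:53133671-53133970: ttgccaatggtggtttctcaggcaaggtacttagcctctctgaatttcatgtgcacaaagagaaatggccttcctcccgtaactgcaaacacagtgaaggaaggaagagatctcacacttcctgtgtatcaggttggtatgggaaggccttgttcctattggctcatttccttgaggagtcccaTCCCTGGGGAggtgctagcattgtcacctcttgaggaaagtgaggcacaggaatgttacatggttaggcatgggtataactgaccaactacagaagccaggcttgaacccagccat
Uck2, chr1:169176691-169176990: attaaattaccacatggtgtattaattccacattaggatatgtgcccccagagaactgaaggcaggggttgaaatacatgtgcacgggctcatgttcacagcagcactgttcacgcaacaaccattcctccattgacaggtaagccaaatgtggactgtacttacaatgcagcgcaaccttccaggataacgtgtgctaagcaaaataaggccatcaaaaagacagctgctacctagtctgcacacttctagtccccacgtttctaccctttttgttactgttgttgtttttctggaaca
Narg2, chr9:69215401-69215700: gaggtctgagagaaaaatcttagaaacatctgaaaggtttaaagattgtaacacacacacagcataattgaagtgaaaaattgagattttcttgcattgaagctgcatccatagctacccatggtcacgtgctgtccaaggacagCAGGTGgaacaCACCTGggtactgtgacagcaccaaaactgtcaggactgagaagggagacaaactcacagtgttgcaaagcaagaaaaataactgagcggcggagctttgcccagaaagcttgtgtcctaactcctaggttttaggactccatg
Ube2f, chr1:93154161-93154460: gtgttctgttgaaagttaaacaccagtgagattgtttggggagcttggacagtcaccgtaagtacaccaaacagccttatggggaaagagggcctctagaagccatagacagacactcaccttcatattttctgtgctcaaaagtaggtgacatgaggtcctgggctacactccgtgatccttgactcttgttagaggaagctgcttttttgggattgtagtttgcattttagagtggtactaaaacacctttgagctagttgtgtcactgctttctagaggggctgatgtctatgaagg
Socs3, chr11:117836241-117836540: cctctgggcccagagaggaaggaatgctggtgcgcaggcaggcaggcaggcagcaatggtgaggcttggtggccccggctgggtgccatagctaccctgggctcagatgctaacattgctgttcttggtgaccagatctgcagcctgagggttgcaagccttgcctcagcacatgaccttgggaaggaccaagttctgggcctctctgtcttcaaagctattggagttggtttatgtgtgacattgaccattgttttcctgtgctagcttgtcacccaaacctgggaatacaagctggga

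Within these 300 bases the H3K27Ac tags went from 3 at 0 h to 234 at 48 h at Abca1 and from 0 to 199 at Uck2. They went from 3 to 167 at Narg2, from 1 to 38 at Ube2f and from 2 to 23 at Socs3. The bases were chosen for their tags at 48 h, so the tags describe them and test nothing. As a position counts at most once, 300 bases can hold no more than 300 tags, and the highest of these counts can be compressed. H3K4Me1 was already there at 0 h, with 9 to 43 tags in the same bases.

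Of the 5900 windows that were primed at 0 h (H3K4Me1 at least 4, H3K27Ac below 1.5), 1174 gained H3K27Ac by the rule, which is 19.9% (exact 95% binomial interval 18.9 to 20.9). A further 3356 (56.9%) stayed below 1.5 at 48 h, called primed windows without gain below, and 1370 (23.2%) lay between. The gaining primed windows formed 1114 runs, of which 1060 were single windows, 48 were pairs and 6 were triples. The values the rule used are a description. H3K4Me1 at 0 h ran from 69 to 431 tags with a median of 85, H3K27Ac at 0 h from 2 to 27 tags with a median of 22, and H3K27Ac at 48 h from 60 to 1613 tags with a median of 98. As a reference for H3K27Ac gained from a lower level of H3K4Me1, 8369 windows had H3K4Me1 below 1.5 at 0 h and met the same 2 limits on H3K27Ac. They are called unmarked gaining windows. The name stands for the limit only, as their median H3K4Me1 at 0 h was 0.821, against 0.352 over all windows.

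The limits cut through continuous values. The 332 windows just inside the H3K4Me1 limit (within 0.5 of it) had a median H3K27Ac of 2.91 at 12 h, and the 577 just outside it (within 0.5) had 2.80. The 519 just inside the limit on H3K27Ac at 0 h (within 0.25) had 3.21 at 12 h and the 468 just outside (within 0.25) had 3.52. At the limit on H3K27Ac at 48 h, the 204 windows inside (within 0.5) had 2.01 at 12 h and the 300 outside (within 0.5) had 1.83. Medians at 12 h thus changed little across each limit.

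In the gaining primed windows the median H3K27Ac was higher at 3, 12 and 24 h than at the time before. The median level was 1.20 at 0 h and 4.97 at 48 h, which the rule fixed, and at the times it did not use it was 1.62 at 3 h (95% order-statistic interval 1.57 to 1.71), 3.06 at 12 h (2.91 to 3.21) and 4.51 at 24 h (4.23 to 4.84). From 3 to 12 h H3K27Ac was higher in 1019 windows (86.8%), against 43.1% of all windows and 87.9% of unmarked gaining windows. The 3 h library was among those that stood apart from the rest, and the 12 h library was not. From 12 to 24 h H3K27Ac was higher in 993 (84.6%), against 21.6% and 89.1%. In 419 windows (35.7%) the level at 24 h was above that of 48 h, against 25.2% of all windows and 19.5% of unmarked gaining windows. Over all windows the median was 0.219 at 0 h, 0.333 at 3 h, 0.255 at 12 h and 0.143 at 24 h. The 90th percentile of all windows was 1.04 at 0 h, so the typical gaining primed window already held more H3K27Ac than most windows. Background windows are those below the mean in all 5 libraries of a mark. With libraries scaled on them, the median of the same gaining primed windows was 7.84 at 24 h and 5.40 at 48 h. The order of these 2 times thus depended on the scaling, while the order of 0, 3, 12 and 24 h did not.

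**Figure D1:**
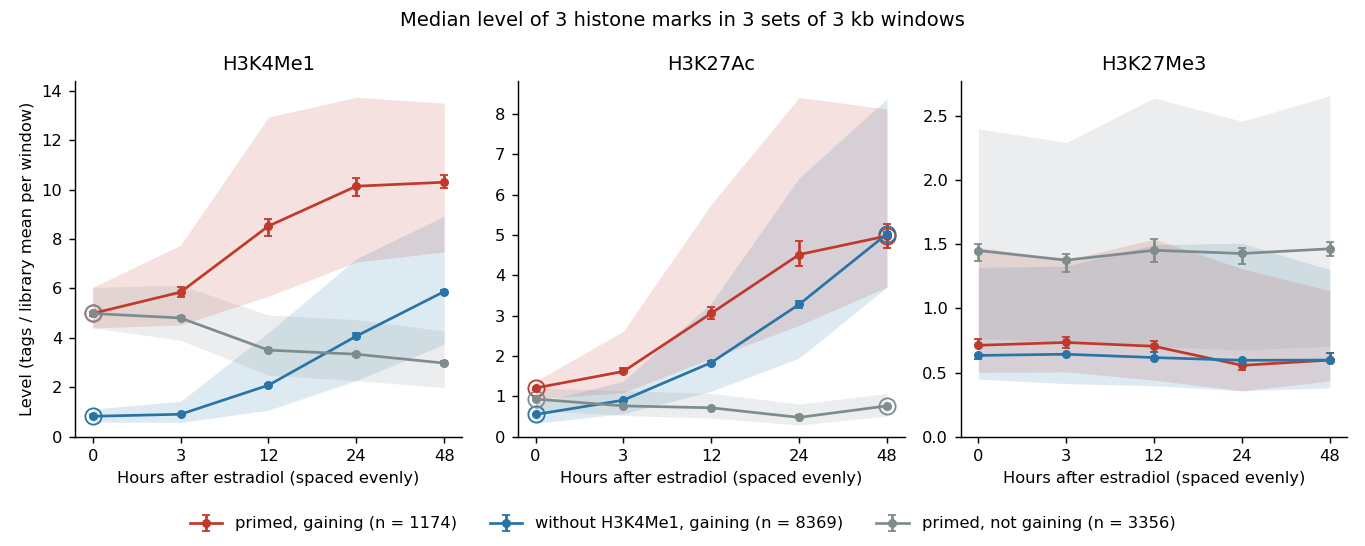
Median level of H3K4Me1, H3K27Ac and H3K27Me3 (times the library mean) at 0, 3, 12, 24 and 48 h, spaced evenly on the x axis, in gaining primed windows, unmarked gaining windows and primed windows without gain. Shading is the interquartile range, error bars are the 95% interval of the median and open rings mark values the rule used. From 0 to 48 h H3K4Me1 went from 4.99 to 10.3 in gaining primed windows and from 4.99 to 2.98 in primed windows without gain, where it was 5.09 at 48 h with background scaling.

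Many gaining primed windows reached the final limit early. H3K27Ac was at least 3 in 219 windows (18.7%) at 3 h, in 606 (51.6%) at 12 h and in 831 (70.8%) at 24 h, against 4.69, 5.30 and 5.69% of all windows with a tag. Counted by the earliest time at this level, 219 were there at 3 h, 403 more at 12 h, 236 more at 24 h and 316 (26.9%) not before 48 h. The cumulative share was 53.0% by 12 h (exact 95% binomial interval 50.1 to 55.9) and 73.1% by 24 h (70.5 to 75.6). Unmarked gaining windows, which ended at a like median of 5.02, had 6.64% at this level by 3 h, 29.0% by 12 h (28.0 to 30.0) and 54.8% by 24 h. Their median H3K27Ac was 0.902, 1.83 and 3.28 at 3, 12 and 24 h, below that of the gaining primed windows at each of these times.

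The unmarked gaining windows also began lower, at a median H3K27Ac of 0.547 at 0 h against 1.20. In a comparison chosen after the data had been seen, both sets were held to 1 to 1.5 at 0 h, which left 808 gaining primed and 1085 unmarked gaining windows. Their medians were then 1.31 and 1.15 at 0 h, 3.16 (3.01 to 3.41) and 2.14 (2.04 to 2.24) at 12 h and 4.54 and 3.14 at 24 h, and 4.97 and 4.57 at 48 h. By 12 h, 55.8% and 29.1% had reached 3. The intervals did not overlap, but both sets were read in the same libraries and there was no replicate against which to test the difference.

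**Figure D2:**
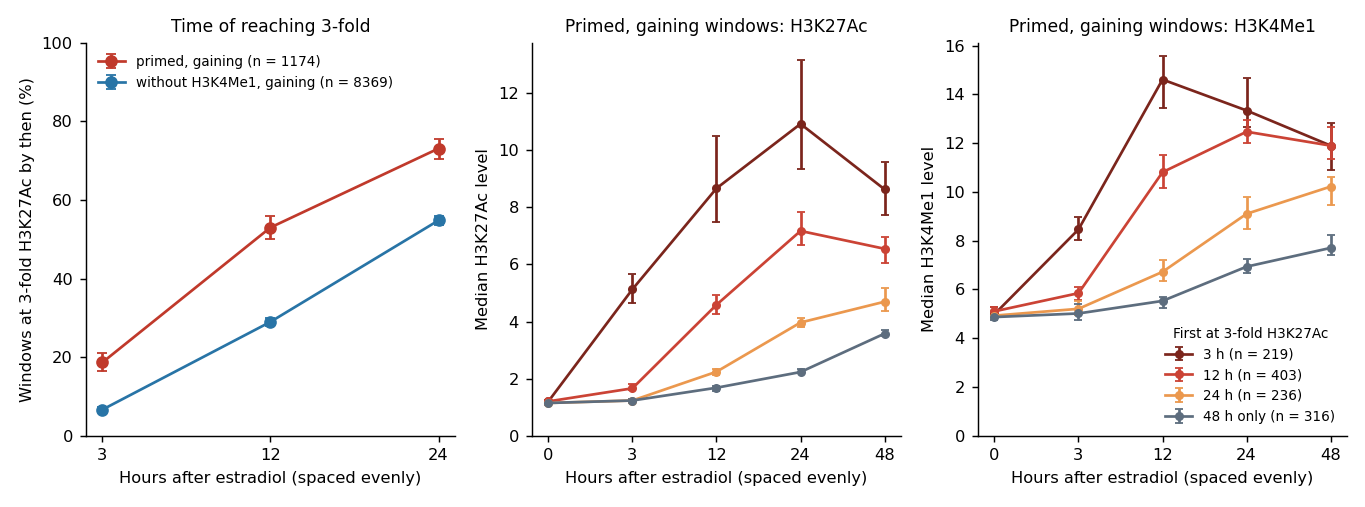
Left, cumulative share of windows with H3K27Ac of at least 3 by 3, 12 and 24 h in gaining primed and unmarked gaining windows, with exact 95% binomial intervals. The other panels give the median H3K27Ac and H3K4Me1 levels over time, spaced evenly, in gaining primed windows grouped by the earliest time at which H3K27Ac reached 3. By 12 h the shares were 53.0% and 29.0%, and the group already at 3 by 3 h had the highest H3K4Me1 at 12 h, with a median of 14.6.

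H3K4Me1 in the gaining primed windows did not stay at its primed level but lay above it at each later time. The median was 4.99 at 0 h, which the rule used, then 5.85 at 3 h (5.66 to 6.04), 8.53 at 12 h (8.12 to 8.83), 10.1 at 24 h and 10.3 at 48 h (10.1 to 10.6). At 3, 12, 24 and 48 h it was 7.37, 13.8, 17.8 and 17.6 with background scaling, and 5.17, 7.12, 9.59 and 10.9 with scaling on windows at 4 or more in all 5 libraries of the mark, called constant windows. Between 3 and 48 h, times outside the rule, it was higher in 988 of 1174 windows (84.2%), against 35.5% of all windows and 99.1% of unmarked gaining windows, and the log2 ratio of the medians was 0.82, against -0.32 over all windows. A level at least 2-fold higher at 48 than at 3 h was seen in 410 (34.9%), against 17.8% of all windows and 8.75% of all primed windows, and a level at least 2-fold lower in 11 (0.937%), against 35.5% and 22.9%. With scaling on background windows these counts were 668 (56.9%) and 3, and with scaling on constant windows 541 (46.1%) and 5. H3K4Me1 was at least 4 at 48 h in 1143 (97.4%), against 7.02% of all windows, 54.0% of all primed windows and 71.6% of unmarked gaining windows. It was at least 4 at every later time in 937 (79.8%), against 4.05% of all windows, 40.7% of all primed windows and 20.7% of primed windows without gain.

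Primed windows without gain had the same median H3K4Me1 of 4.99 at 0 h and then 4.80 at 3 h, 3.5 at 12 h, 3.34 at 24 h and 2.98 at 48 h. With background scaling these later medians were 6.05, 5.67, 5.84 and 5.09, above that of 0 h, and with constant windows 4.25, 2.93, 3.15 and 3.14, so the direction from 0 h depended on the scaling. The log2 ratio of the medians from 3 to 48 h was -0.69, and it was -0.25 and -0.44 under the other 2 scalings. H3K4Me1 was at least 4 at 48 h in 29.3% of them, against 7.02% of all windows. It was at least 2-fold lower at 48 than at 3 h in 38.1%, against 35.5% of all windows, many of which hold few tags. A level at least 2-fold higher was seen in 0.656%, against 17.8% of all windows, so the calls were mostly in 1 direction here and not over all windows. In unmarked gaining windows H3K4Me1 went from 0.904 at 3 h to 2.08, 4.07 and 5.87 at 12, 24 and 48 h. It was at least 2-fold higher at 48 than at 3 h in 93.1%, with a low starting level that their selection fixed.

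Windows with an earlier gain of H3K27Ac also had more H3K4Me1 at 3 and 12 h. In the group already at 3 for H3K27Ac by 3 h, the median H3K4Me1 was 4.99 at 0 h, 8.46 at 3 h, 14.6 at 12 h, 13.3 at 24 h and 11.9 at 48 h. In the group that reached 3 at 12 h it was 5.10, 5.85, 10.8, 12.5 and 11.9, and in the group of 24 h it was 4.93, 5.21, 6.72, 9.10 and 10.2. In windows that reached it at 48 h it was 4.87, 5.02, 5.53, 6.94 and 7.71. The groups began alike and their H3K4Me1 separated at the times at which their H3K27Ac did. Across the 1174 windows, Spearman's rho between H3K4Me1 and H3K27Ac of the same time was 0.463 at 3 h, 0.727 at 12 h and 0.680 at 24 h. Between H3K4Me1 at 0 h and H3K27Ac rho was 0.013 at 3 h, 0.019 at 12 h and 0.071 at 24 h, but H3K4Me1 at 0 h was cut at 4 by the rule and the windows were chosen for their H3K27Ac at 48 h, so these values say nothing of primed windows in general. These are descriptions across windows that share libraries and differ in mappability and base composition.

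H3K27Ac at 3, 12 or 24 h was at least 2-fold above its 48 h level in 61 windows (5.20%, 4.0 to 6.62), against 2.23% (1.93 to 2.57) of unmarked gaining windows, which met the same limit at 48 h, and 42.4% of all windows, many of which hold few tags. The rule asks for a level of 3 at 48 h and so selects against transient acetylation. The count was 241 with background scaling and 27 with scaling on constant windows, so it depended on how the libraries were scaled. At 14 windows the 3 h level itself was at least 2-fold above that of 48 h, and this count was 8 under either other scaling.

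The gaining primed windows often lay beside chromatin that was already acetylated. An adjoining window had H3K27Ac of at least 3 at 0 h for 437 of them (37.2%), against 8.08% of all windows, 9.31% of unmarked gaining windows and 26.6% of primed windows without gain. At 48 h an adjoining window was at this level for 73.9%, against 10.1% of all windows and 69.5% of unmarked gaining windows. The mean H3K27Ac inside the gaining primed windows was 1.12 at 0 h and 7.83 at 48 h, while 1.5 to 4.5 kb from the centre it was 3.02 and 7.04, and 9 to 15 kb away 3.18 and 5.35. The mean profile thus had a dip at 0 h and a peak at 48 h, and the limits on H3K27Ac at 0 and 48 h select for both. The other sets, held to the same limit, had the dip too, with 0.603 inside and 1.06 and 1.98 outside in unmarked gaining windows and 0.927, 2.04 and 2.36 in primed windows without gain, and unmarked gaining windows had the peak at 48 h, with 7.75 inside and 6.54 in the near flanks. H3K4Me1 was at 5.63 inside and 4.10 in the near flanks at 0 h, a peak that the limit on H3K4Me1 selects for, and at 11.0 and 7.13 at 48 h, a time at which the rule did not use it.

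Windows with and without such a neighbour had similar medians of H3K27Ac, while H3K4Me1 at 12 h and H3K27Me3 differed. The 737 windows with no such neighbour had a median H3K27Ac of 1.57, 3.21 and 4.70 at 3, 12 and 24 h, and the 437 with one had 1.71, 3.01 and 4.42. Their H3K4Me1 was 8.98 (8.47 to 9.49) and 7.81 (7.31 to 8.42) at 12 h and 10.4 and 10.2 at 48 h, and their H3K27Me3 was 0.818 (0.739 to 0.95) and 0.660 (0.607 to 0.713) at 0 h and 0.706 and 0.543 at 48 h.

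**Figure D3:**
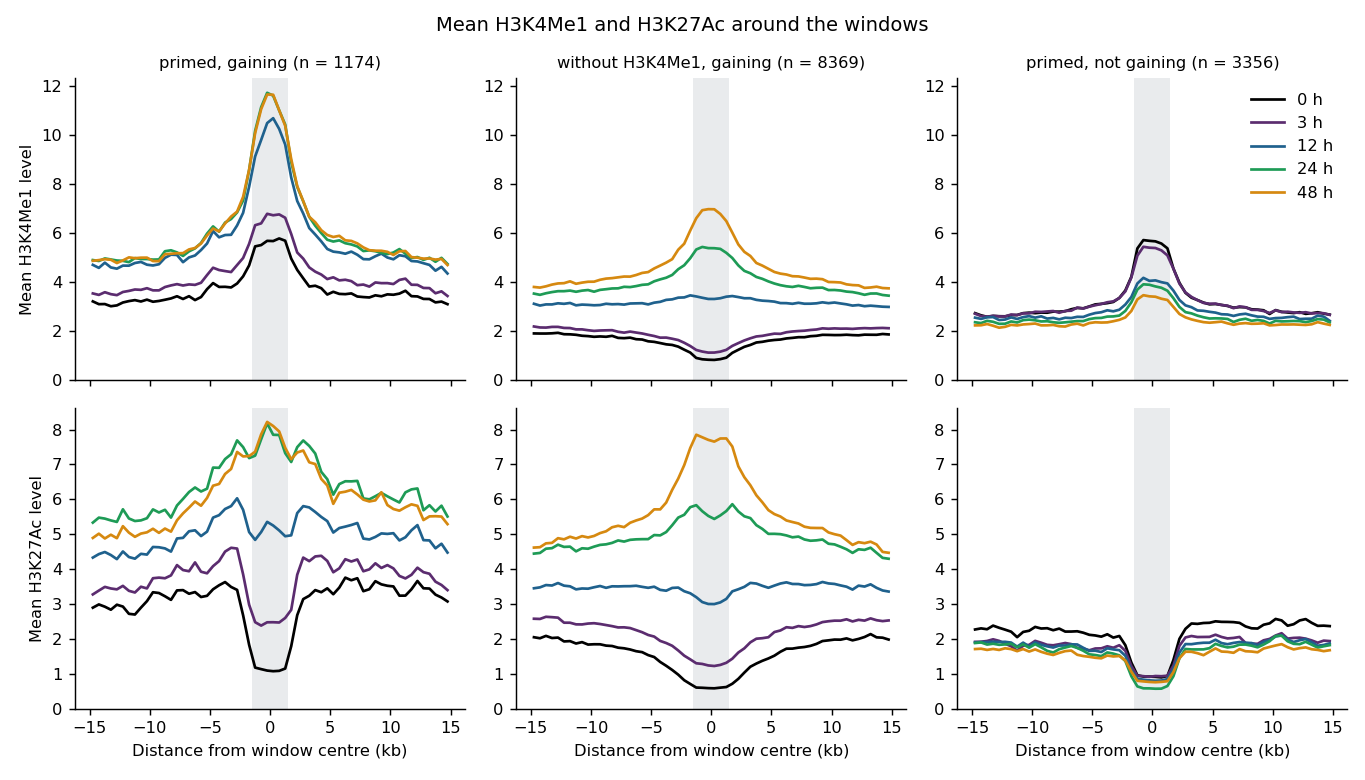
Mean level (times the library mean) of H3K4Me1 and H3K27Ac against distance from the window centre, to 15 kb on either side in 500 bp bins, in the 3 sets of windows, with a line for each time and a grey band for the window itself. H3K27Ac of gaining primed windows had a dip with a mean of 1.12 inside the window at 0 h and a peak of 7.83 at 48 h, both of which the rule selects for.

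The median H3K27Me3 of gaining primed windows was near that of all windows from 0 to 12 h and below it at 24 and 48 h. It was 0.713 at 0 h, 0.735 at 3 h, 0.705 at 12 h, 0.556 at 24 h and 0.597 at 48 h. Over all windows the medians at these times were 0.792, 0.78, 0.705, 0.715 and 0.706. The log2 ratio of 48 to 0 h was -0.26, beside -0.17 over all windows. Primed windows without gain had more, with medians between 1.38 and 1.47 at all 5 times. A level of at least 2 at 0 h was seen in 183 gaining primed windows (15.6%, exact 95% binomial interval 13.6 to 17.8), against 11.0% of all windows, 12.6% of unmarked gaining windows and 34.7% (33.0 to 36.3) of primed windows without gain. At 48 h the shares were 12.4% (145 windows), 13.3%, 14.4% and 39.0%. H3K27Me3 was no part of the rule.

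The 183 windows that carried H3K4Me1 together with H3K27Me3 at 0 h began with less H3K27Ac, at a median of 0.821 (0.766 to 0.930) against 1.20 (1.20 to 1.26) in the 991 others. They also had less at 3 h, at 1.19 (0.95 to 1.47) against 1.66 (1.62 to 1.76), and from 12 h on the intervals overlapped, with 2.80 and 3.11 at 12 h and 4.80 and 4.51 at 24 h. Their H3K4Me1 was 11.5 at 48 h. Their median H3K27Me3 was 2.75, 2.57, 3.04, 2.46 and 2.28 at the 5 times, so most of the mark was still read at 48 h. The log2 ratio of the medians from 3 to 48 h was -0.17, and 0.02 with background scaling, so no direction was fixed. H3K27Me3 at 48 h was lower by at least 2-fold than at 3 h in 27 of the 183 (14.8%, 9.95 to 20.7) and in 149 of the 991 others, whose levels were low, against 0.578% of all windows that began with this level, 6.56% of such unmarked gaining windows and 0.258% (3 of 1163) of such primed windows without gain. The share was 10.4% and 16.4% under the other 2 scalings. Whether H3K27Me3 and H3K27Ac sat on the same alleles or in different cells cannot be told apart.

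**Figure D4:**
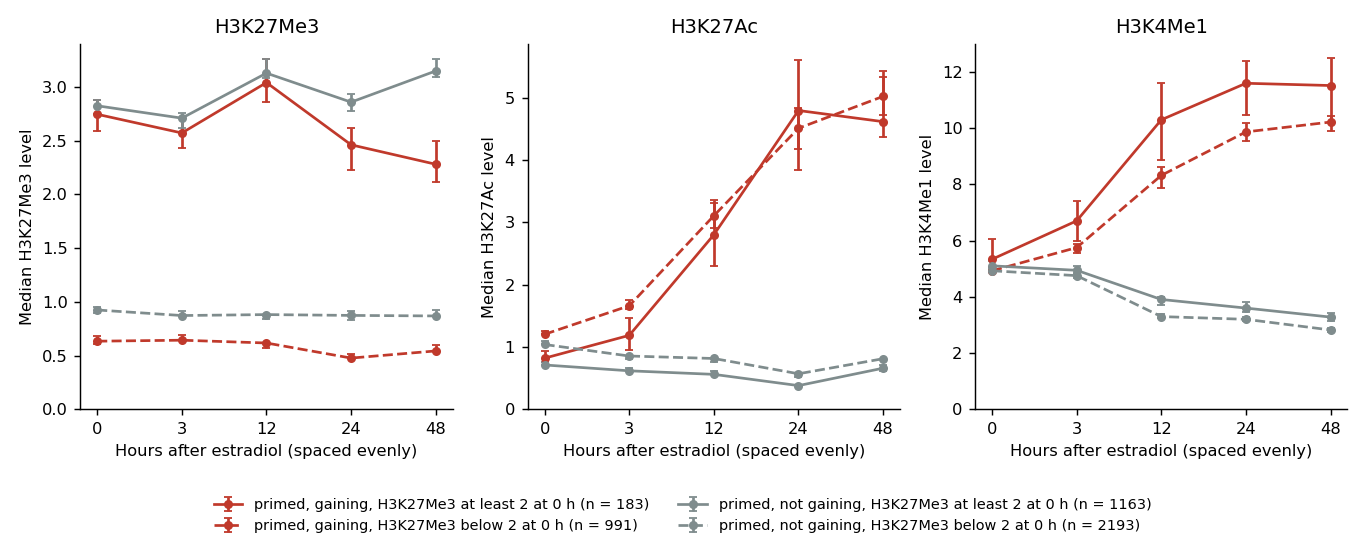
Median level (times the library mean) of each mark over time, spaced evenly, in gaining primed windows and primed windows without gain, split at H3K27Me3 of 2 at 0 h; error bars are 95% intervals of the median. Gaining primed windows that began with H3K27Me3 held 2.28 of it at 48 h beside an H3K27Ac of 4.62, and the corresponding windows without gain held 3.15 beside 0.660.

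The gaining primed windows lay closer to gene starts than windows in general. The centre was over 2.5 kb from every annotated start in 979 (83.4%, exact 95% binomial interval 81.1 to 85.5), against 90.7% of all windows, 86.4% of unmarked gaining windows and 82.8% of primed windows without gain. The other 195 (16.6%) lay within 2.5 kb of a start. Of the distant windows, 635 (54.1% of all 1174) had their centre in an intron, 313 (26.7%) between genes and 31 (2.64%) in an exon, where 33.1% of all windows were intronic and 55.6% lay between genes. The median distance to the nearest start was 9.0 kb, against 12.6 kb for unmarked gaining windows, 10.7 kb for primed windows without gain and 28.8 kb for all windows. By chromosome, the density was highest on chromosome 11, with 112 windows or 2.85 per 1000, and lowest on X, with 9 or 0.178 per 1000, but as a share of the primed windows it lay between 15.5% and 26.5% on every chromosome.

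In base composition the gaining primed windows lay between the other 2 sets. The median GC content was 45.2% in the 1172 windows of fully known sequence, 43.7% in unmarked gaining windows, 46.4% in primed windows without gain and 41.3% in all windows, and CpG density was 9.67, 8.67, 10.7 and 7.0 per kb. The AP-1 motif, bound by Fos and Jun proteins, was found in 70.1% of gaining primed windows (67.4 to 72.8) and in 71.1% of unmarked gaining windows, but in 59.4% (57.7 to 61.1) of primed windows without gain and 60.1% of all windows. The EBF motif stood in 38.4% (35.6 to 41.3), against 26.0% of unmarked gaining windows, 46.5% (44.8 to 48.2) of primed windows without gain, 23.7% of all windows and 32.4% of windows of the same GC content. The gaining primed windows thus had an AP-1 share near that of the other gaining set and an EBF share between the 2 sets.

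The PU.1 motif was found in 23.6% (21.2 to 26.1), against 20.8% and 20.7% in the other sets and 18.4% of windows of the same GC content. The RUNX motif stood in 25.7%, against 21.8%, 24.9% and 20.6%. For C/EBP the share was 73.1% (70.5 to 75.6), against 75.5% of unmarked gaining windows, 68.7% of primed windows without gain, 76.2% of all windows and 71.5% at the same GC content, so it was near the background. E-box, IRF and NF-kB matches stood in 89.2%, 63.5% and 2.47%, against 88.7%, 64.0% and 2.43% at the same GC content. These are exact letters in 3 kb, on both strands, and they say nothing of whether a factor was bound.

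The windows with the most H3K27Ac at 48 h, chosen by that value, went from near the library mean to levels of 52.4 to 81.9. In an intron of Abca1, which encodes the transporter that exports cholesterol from macrophages, the window at chr4:53133001-53136000, 38267 bp downstream of the start, held 26, 57, 900, 1477 and 1613 H3K27Ac tags at 0, 3, 12, 24 and 48 h (exact Poisson interval 17.0 to 38.1 at 0 h and 1535 to 1694 at 48 h). Its H3K4Me1 tags were 83, 219, 665, 465 and 397, against library means of 17.1, 21.0, 19.7, 15 and 13.1 tags per window, while those of H3K27Ac were alike at 18.3 to 21.1. Its H3K27Me3 levels were 1.53, 1.65, 1.28, 0.635 and 0.651. At 3 h, when the level of H3K4Me1 had gone from 4.87 to 10.4, that of H3K27Ac was 2.71, and most of the acetylation came between 3 and 24 h. The adjoining window of Abca1 followed with 13, 59, 613, 1097 and 1254 H3K27Ac tags. A position counts at most once, so a window cannot hold more than 1 tag per base. High counts can be compressed by this cap, and the Poisson interval at 48 h does not allow for it.

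An intronic window of Uck2, which encodes a uridine-cytidine kinase, held 20, 531, 1053, 1492 and 1339 H3K27Ac tags. This window was acetylated within 3 h. Near Nt5e, which encodes the ectonucleotidase CD73, the tags were 27, 185, 491, 909 and 1140. A late course was seen 9727 bp upstream of Chrnd, a subunit of the muscle acetylcholine receptor, with 22, 9, 149, 584 and 1111 tags and H3K4Me1 tags of 86, 82, 243, 188 and 188. Here neither mark was above its 0 h level at 3 h.

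The window 4209 bp upstream of Fkbpl, a gene for an immunophilin-like protein, began with H3K4Me1 of 14.0 and H3K27Me3 of 2.80. It held 20, 307, 656, 1266 and 1051 H3K27Ac tags while its H3K27Me3 level went to 2.11, 1.32, 0.278 and 0.597. The window 15816 bp upstream of Glrx, which encodes the redox enzyme glutaredoxin, held 27, 143, 682, 1047 and 1033 H3K27Ac tags. The window nearest to the predicted gene Gm5528, 91362 bp away, held 19, 127, 297, 676 and 1052. All of these windows had at most 27 tags at 0 h, as the rule requires.

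**Figure D5:**
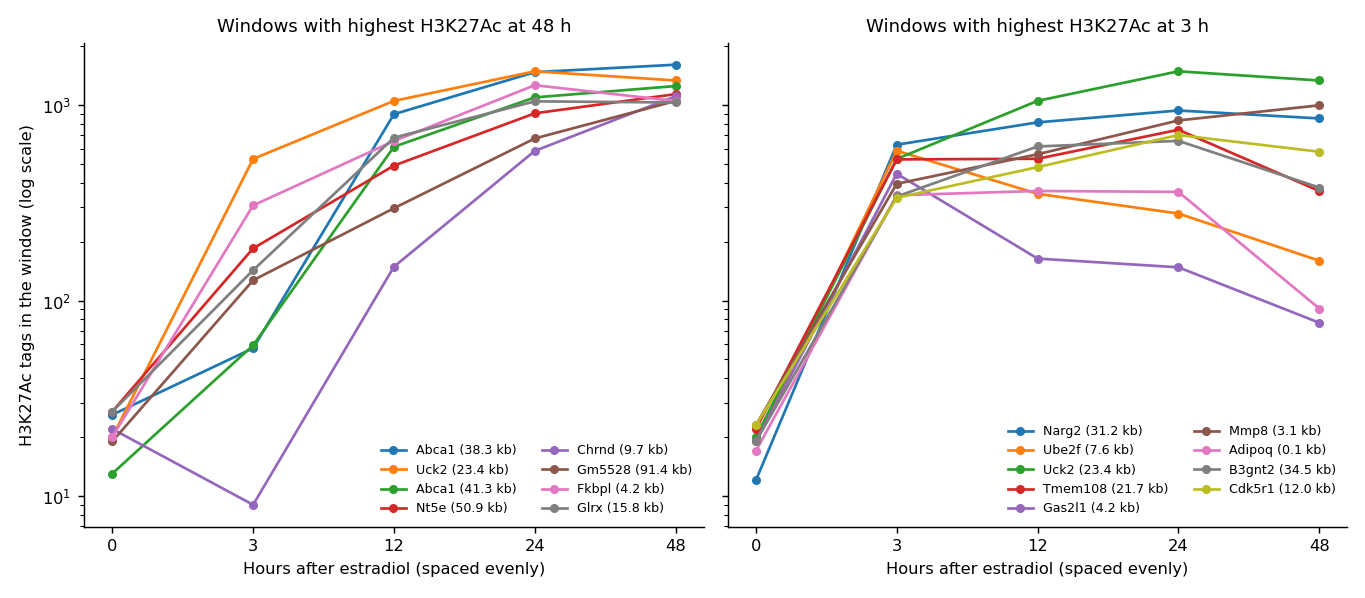
H3K27Ac tags per window on a log axis at 0, 3, 12, 24 and 48 h, spaced evenly, for 8 of the 10 gaining primed windows with the highest level at 48 h (left) and 9 of the 10 with the highest level at 3 h (right), each labelled with the gene of the nearest start and the distance to it. At left the courses end between 1033 and 1613 tags, and at right several pass their peak by 24 h, such as Gas2l1 with 446 tags at 3 h and 77 at 48 h. A position counts at most once, so the highest counts can be compressed.

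Among the 10 windows with the most H3K27Ac at 3 h, some held their acetylation and some lost it again. The window at chr9:69213001-69216000, at an annotated start inside Rora, a nuclear receptor gene, and 31213 bp from the start of Narg2, held 12, 628, 817, 940 and 856 H3K27Ac tags and H3K27Me3 levels of 2.96, 2.02, 1.85, 0.913 and 1.09. An intronic window of Ube2f, a NEDD8-conjugating enzyme gene, held 19, 585, 352, 279 and 160, so its highest value was at 3 h. Its H3K4Me1 tags were 71, 354, 419, 269 and 215. The window 4170 bp upstream of Gas2l1, which encodes a protein that links actin and microtubules, held 19, 446, 164, 148 and 77.

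Further windows were acetylated early and held fewer tags again at 48 h. At the start of Adipoq, the gene of the hormone adiponectin, the H3K27Ac tags were 17, 346, 364, 360 and 91, with H3K27Me3 going from a level of 4.30 at 0 h to 1.36 at 48 h. In Tmem108 they were 22, 528, 532, 749 and 364, with H3K27Me3 at 3.35 at 0 h and 1.85 at 48 h. In an intron of Commd1, 34539 bp from the start of B3gnt2, a glycosyltransferase gene, they were 19, 341, 615, 657 and 379. The window in Mmp8, the gene of neutrophil collagenase, had more at each time, with 23, 396, 561, 836 and 999. A window in an intron of Myo1d, 11952 bp from the start of Cdk5r1, an activator of the kinase Cdk5, held 23, 336, 482, 704 and 578. In each of these windows H3K4Me1 was higher at 12 h than at 0 h.

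The 5 windows with the most H3K27Me3 at 0 h had H3K27Ac levels of 3.10 to 5.99 at 48 h, beside a median of 4.97 in all gaining primed windows. The window 4139 bp upstream of Socs3, the feedback inhibitor of JAK-STAT signalling, held 193, 107, 131, 78 and 51 H3K27Me3 tags, which is a level of 5.09 at 0 h and 2.77 at 48 h, and 14, 45, 60, 126 and 84 H3K27Ac tags. At Fgr, a myeloid kinase of the Src family, H3K27Me3 was at 4.99 at 0 h and 3.91 at 48 h and the H3K27Ac tags were 18, 26, 37, 57 and 74. Upstream of Fosb, an AP-1 gene, H3K27Me3 was at 4.86 and 4.67 and the tags were 23, 26, 44, 113 and 118. At Mtap1a, which encodes a microtubule-associated protein, H3K27Me3 was at 4.54 and 3.53 and the H3K27Ac tags were 6, 19, 63, 46 and 61. The remaining window of these 5, at chr8:127869001-127872000 with no protein-coding start within 100 kb, had H3K27Me3 of 4.78 and 4.51 and H3K27Ac tags of 13, 18, 31, 53 and 62. Of these 5, Socs3 had the lowest H3K27Me3 at 48 h, and both marks were read at each of them at 48 h.

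Counted by the nearest start within 100 kb, 1057 of the windows (90%) could be given to 876 protein-coding genes, counted by symbol, which is 3.94% of 22208. Of these genes 134 had 2 or more windows, and 402 (45.9%) also had an unmarked gaining window, against 15.4% of all protein-coding genes. The predicted gene 4933407C03Rik had 6, of which 5 lay in its introns, with 66 to 400 H3K27Ac tags at 48 h. Abtb2 had 5 and so did Laptm4a, which encodes a lysosomal membrane protein. Abca1, Ern1 (the endoplasmic reticulum stress sensor IRE1), Maml2 (a Notch coactivator), Socs3 and Tmem63b were among those with 4 each. The symbol Uck2 also had 4, but they belong to 2 annotated gene identifiers with different starts and 2 windows each. Some windows of a gene followed each other, as the adjoining ones of Abca1, and others differed. In Abtb2, the window at chr2:103443001-103446000 held 26, 303, 680, 846 and 825 H3K27Ac tags, and that at chr2:103476001-103479000 held 12, 12, 23, 47 and 67 beside an H3K27Me3 level of 3.80 at 0 h.

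Gene lists for the tissue gave counts that are read against this 3.94%. They were chosen with earlier results of these data known, and they carry no test. Myeloid transcription factors had a gaining primed window in 9 of 38 genes (23.7%, exact 95% binomial interval 11.4 to 40.2): Fos, Fosb and Atf3 of the AP-1 group, Runx1, Irf7, Klf6, Zeb2, Nr4a1 and Hif1a. An unmarked gaining window stood at 14 of these 38 (36.8%) and a primed window without gain at 9 (23.7%), against 15.4% and 9.76% of all protein-coding genes. Downstream of Fos the H3K27Ac tags were 19, 23, 137, 330 and 232. In Klf6 they were 24, 41, 110, 239 and 477, and at Nr4a1, a nuclear receptor of early responses, 27, 84, 283, 203 and 67. In Runx1 they were 23, 66, 61, 59 and 60, so that window was reached by 3 h and stayed at that value. Signalling genes had such a window in 9 of 39 (23.1%, 11.1 to 39.3), namely the kinase genes Lyn, Fgr and Pik3cg, Pik3r5, the inhibitors Socs3, Nfkbia, Dusp6 and Rgs1, and Rapgef1, and 22 (56.4%) had an unmarked gaining window. In Pik3r5, a regulatory subunit of the PI3 kinase γ, the tags were 12, 60, 281, 619 and 363.

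Of macrophage receptors, 5 of 52 genes had a gaining primed window (9.62%, 3.20 to 21.0), whereas 28 (53.9%) had an unmarked gaining window. Among them were the CSF-1 receptor gene Csf1r, the costimulator Cd86, the cytokine receptor subunit Csf2rb and the Fc receptor Fcgr2b. The H3K27Ac tags 15726 bp upstream of Csf1r were 17, 18, 32, 44 and 69 with H3K4Me1 tags of 75, 58, 96, 124 and 114, a late and small increase. In Cd86 they were 6, 67, 206, 168 and 169, for Csf2rb 17, 86, 150, 207 and 135 and in Fcgr2b 22, 94, 70, 166 and 173. These 3 were acetylated from 3 h on.

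Lysosome and phagocyte oxidase genes had a gaining primed window in 4 of 40 (10.0%), against 55.0% with an unmarked gaining window. They were Lyz1 (lysozyme), Lamp1, Hexa and the proton pump subunit gene Atp6v0a1. At Lyz1 the tags were 18, 155, 426, 814 and 956, and the level of H3K27Me3 was 0.739 at 0 h and 0.0543 at 48 h. Lipid handling genes had such a window in 3 of 30 (10.0%), Abca1, Scarb1 and Stard4, against 63.3%. Cytoskeleton and adhesion genes had 5 of 42 (11.9%): Mmp8 and the integrin genes Itga5, Itga6, Itgal and Itgb7. At Itgb7 the H3K27Ac tags were 24, 51, 434, 744 and 760, and near Itga5 12, 14, 26, 55 and 72. Cytokine genes had 2 of 35 (5.71%), Lif and Osm, against 54.3%.

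Of B lineage genes, 3 of 40 had a gaining primed window (7.5%, 1.57 to 20.4), namely Foxo1, a factor of B cell development, the coactivator Pou2af1 and the cannabinoid receptor gene Cnr2. An unmarked gaining window stood at 1 of the 40 and a primed window without gain at 10 (25%), against 9.76% of all genes. In Foxo1 the tags were 27, 84, 68, 71 and 66, and upstream of Pou2af1 20, 46, 117, 174 and 179. T lineage genes had a gaining primed window in 2 of 30, Ctla4 and Gata3, and a primed window without gain in 10 (33.3%), and the window given to Gata3 lay 74839 bp from its start in an intron of Taf3. Granule genes of granulocytes (0 of 20), erythroid and megakaryocyte genes (0 of 19) and neuronal genes (0 of 29) had none, with upper exact 95% bounds of 16.8%, 17.7% and 11.9%. An unmarked gaining window stood at 6 (30%), 1 and 0 genes of these lists. The neutrophil collagenase gene Mmp8, which had gaining primed windows, was counted with the cytoskeleton and adhesion genes and not with the granule genes. A last list holds genes whose loci the study shows as examples, which it chose on these samples, but the windows counted here are any gaining primed windows nearest to those genes and need not be the regions it shows. Of its 16 genes 3 had such a window: Csf1r, Fos and Tgfbr2, where the tags 8117 bp upstream of the TGF-β receptor gene were 16, 57, 85, 92 and 69.

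H3K27Ac at the starts of the genes was compared between 0 and 48 h, leaving out starts that overlap a gaining window. The rule used the same 2 libraries, and that of 0 h was among those that stood apart. Of 727 genes with a gaining primed window, 83 (11.4%, exact 95% binomial interval 9.20 to 14.0) had at least 2-fold more H3K27Ac at the start at 48 than at 0 h and 75 (10.3%, 8.20 to 12.8) at least 2-fold less, against 8.09% and 16.3% of 17043 protein-coding genes. The median log2 change was -0.04 (-0.11 to 0.02), against -0.22 in all genes. At 0 h the median level at the starts was 15.4 in the 727 genes and 6.84 in all genes. In genes with a primed window without gain and no gaining window it was 4.7. A 2-fold call rests on fewer tags where the level is low, so the shares of these sets are not fully comparable. Of genes with a primed window without gain and no gaining window, 4.83% had more and 22.6% had less, which was 6.50% and 18.5% with background scaling and 9.92% and 12.7% with constant windows. The balance depended on the scaling: among the 727 genes it was 107 with more and 56 with less with background scaling and 152 and 25 with constant windows, and among all genes 1714 and 2188, and 2561 and 1426. Beside all genes, the 727 had shares of 14.7% against 10.1% with more and 7.70% against 12.8% with less on background, and 20.9% against 15% and 3.44% against 8.37% on constant windows. In the 389 genes with a gaining primed window and no unmarked gaining window, 33 (8.48%, 5.91 to 11.7) had more and 53 (13.6%, 10.4 to 17.4) had less, with a median log2 change of -0.12 (-0.19 to -0.04), so their share with more was near that of all genes. With background scaling 44 had more and 41 less, and with constant windows 70 and 19 with a median of 0.29, so the sign of their median depended on the scaling. Over the 2658 genes with an unmarked gaining window and no gaining primed window, 13.7% had more and 8.54% less, which was 15.7% and 7.11% with background scaling and 22.9% and 4.29% with constant windows.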

How the data were processed

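ChIP-seq of H3K4Me1, H3K27Ac and H3K27Me3 was analysed in C10 cells at 0, 3, 12, 24 and 48 h. By their account, the authors aligned Illumina reads to mm9 with Eland or Bowtie, without mismatches, and removed non-unique and identical tags. Which aligner made which file is not given in the sources used here. The H3K4Me1 files of 0 and 48 h held 13096 and 6760 positions with over 2 tags, so identical tags remained in them. The files deposited by the authors list the chromosome, start and end of each tag of 36 bp, so they hold positions and no other unit. In 3 files, 2 lines without a position were dropped. At each position 1 tag was kept, its midpoint taken, and midpoints were counted in 3 kb windows of chromosomes 1 to 19 and X. A level is such a count over the library mean of windows with a tag. The members and gene lists were chosen with earlier results of these data known. The named windows are the top 10 by H3K27Ac at 48 h and at 3 h, the top 5 by H3K27Me3 at 0 h, those of the genes with most windows, and those of list genes; which list genes have their tags printed was chosen after the values were seen, and windows of some genes are not reported here. Fold changes at gene starts used 3 kb, a pseudocount of 1 tag and a minimum of 20 tags over the 5 times. No test was run, since a single library stands for each group. Intervals are exact binomial for shares, exact Poisson for tags and order-statistic for medians, at 95%. The Poisson intervals do not allow for the cap of 1 tag per position. The calculations were checked on simulated data, with other limits and with planted windows well clear of them. The check therefore does not show how the rule acts on windows near its limits. Depth was 10913733 to 31541879 distinct positions per library. Alternatives were another scaling, tags as deposited, equal depth, a shifted grid, 2 kb windows, other limits, and windows away from starts or from acetylated neighbours. Python 3.11.15, numpy 2.4.6, pandas 2.3.3, scipy 1.17.1 and matplotlib 3.10.9 were used. Sequences and annotation were NCBIM37.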

Additional observations from a re-analysis of the deposited data

How the results depend on the processing

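The main results were recomputed under 12 alternatives, 11 of them planned, which gave 116 values. Of these, 83 lay inside the main interval (for the number of windows, within 1.5 times its main count) and 33 moved by more. A change of sign was seen in 0 of them, but counts, shares and median levels cannot be negative. Only the log2 changes and the difference between sets could have changed sign. No paired analysis was possible because no group had a second library, and for the same reason leaving out a library removes its group. The share at 3 in the 12 h library alone, which does not use that of 3 h, was 51.6%, beside 53.0% by 12 h. The number of gaining primed windows, 1174, was 59 with stricter limits, 5293 with looser limits, 2210 with 2 kb windows and 737 without windows beside acetylated chromatin. Their share of primed windows, 19.9%, was 22.1% with background scaling, 28.1% with constant windows, 8.79% with stricter limits, 28.7% with looser limits and 25.6% for H3K27Ac of 1 to 1.5 at 0 h (added after seeing the data). Background scaling, with members chosen anew, gave a median H3K27Ac of 1.23 at 3 h, 2.64 at 12 h and 7.10 at 24 h, 44.3% of windows at 3 by 12 h, and log2 changes of 1.23 in H3K4Me1 from 3 to 48 h and -0.053 in H3K27Me3 from 0 to 48 h. Constant windows gave 2.77 at 12 h, 3.42 at 24 h, 46.6%, 0.94 and -0.37. Stricter limits gave 1.47, 3.92 and 6.84 at 3, 12 and 24 h, 66.1%, 0.42 and -0.56, and a difference from unmarked gaining windows at 12 h of 1.78 in place of 1.22. Looser limits gave 2.70 and 3.66 at 12 and 24 h and 47.1%, and the added alternative 1.81 at 3 h. The share over 2.5 kb from a start was 80.5% with 2 kb windows and 87.8% without windows beside acetylated chromatin. The cause of these shifts was not tested. The scaling factors between libraries reached a log2 value of 0.81 (H3K4Me1 at 24 h, background), and 0.41 for H3K27Ac at 48 h on constant windows, so changes over time of this size depend on the scaling. The difference from unmarked gaining windows at 12 h kept its direction under each of the 12 alternatives. Windows away from starts, 1 window per run and windows without acetylated neighbours were filters on the gaining primed windows only. The 8369 unmarked gaining windows were left whole there, so these alternatives cannot show whether the difference holds with both sets filtered.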
